A study of Mus musculus with 8 samples.

Results

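The 39 genes described here encode proteins that carry a cell through mitosis and cytokinesis. They were chosen by name, all 39 were found among the 23500 genes of the deposited tables, and all 39 passed the filter on low values (at least 1 FPKM in at least 4 libraries), which kept 11162 genes. FPKM is a fragment count divided by transcript length and by the mapped fragments of the library. Levels are thus adjusted for length and depth, and not for other differences between libraries. The cells were mouse bone marrow-derived mesenchymal stem cells, stromal progenitors of bone, cartilage and fat, with a p53 knockout, kept under 20 passages. All libraries share that knockout, so nothing here compares cells with and without p53. Each of 4 lines, grown from single clones and numbered 2, 4, 8 and 12, received a retrovirus with luciferase (Luc), the control, or a retrovirus with cFos cDNA, which encodes an AP-1 transcription factor subunit. There was 1 polyadenylated RNA library for each clone and virus, 8 in all. A name such as Luc 8 stands for the Luc library of clone 8. Each combination was sequenced once, so a property of a clone and a property of its library cannot be told apart, nor can more dividing cells and more RNA in each.

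Entry into mitosis is driven by the kinase Cdk1 with cyclin A or cyclin B, and exit by the anaphase-promoting complex, a ubiquitin ligase that destroys the cyclins. Most of the 39 genes are transcribed in the late phases of the cell cycle, so their RNA in a bulk sample rises and falls with the share of cycling cells. In non-cycling cells many of them are held off by a repressor complex that binds the cell cycle homology region (CHR) of their promoters, and p53 acts on them through the Cdk inhibitor p21 (Cdkn1a). In cycling cells the MuvB, B-Myb and FoxM1 factors use the same element, often beside CCAAT boxes bound by NF-Y.

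The promoters of the 39 genes are shown because a sequence feature common to them was not part of how they were chosen. RefSeq promoter windows of build GRCm38.p6 (250 bases before to 50 after a transcription start, 300 in all) were found for 33 of the 39, in 35 windows. The motifs searched, on both strands, were the CHR as TTTGAA or TTCGAA, the CCAAT box as CCAAT, the AP-1 site as TGAGTCA or TGACTCA, and the E2F site as TTTCCCGC, TTTCGCGC, TTTGCCGC or TTTGGCGC. A CHR was present in 28 of the 35 windows (80.0%), against 19.2% of all 32851 windows, and lay within 50 bases of the start in 26 (74.3%), against 5.31% of all windows. A CCAAT box was present in 27 (77.1% against 37.4%), and 25 held both (71.4% against 7.52%). The AP-1 site was in 0 of the 35 windows, against 5.2% of all, and the E2F site in 1, that of Cdk1, against 2.26%. These are matches of letters, and binding was not measured. The 200 bases before the start are printed 5′ to 3′ for the genes with the smallest p in either comparison of clone 8 with the other clones (6 each, given below), where a window was found, 10 in all, with CHR and CCAAT letters of either strand in capitals.
Ccnf (chr17:24251410-24251609, minus strand): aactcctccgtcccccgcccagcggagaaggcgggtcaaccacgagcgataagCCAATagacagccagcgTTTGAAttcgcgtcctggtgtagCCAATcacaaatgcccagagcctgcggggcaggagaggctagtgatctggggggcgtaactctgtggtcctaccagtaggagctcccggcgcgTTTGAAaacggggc
Cdc20 (chr4:118437344-118437543, minus strand): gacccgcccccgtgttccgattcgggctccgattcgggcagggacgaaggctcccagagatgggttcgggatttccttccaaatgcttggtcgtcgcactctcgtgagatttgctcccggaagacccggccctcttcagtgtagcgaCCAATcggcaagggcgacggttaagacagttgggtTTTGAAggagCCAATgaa
Ube2c (chr2:164769729-164769928, plus strand): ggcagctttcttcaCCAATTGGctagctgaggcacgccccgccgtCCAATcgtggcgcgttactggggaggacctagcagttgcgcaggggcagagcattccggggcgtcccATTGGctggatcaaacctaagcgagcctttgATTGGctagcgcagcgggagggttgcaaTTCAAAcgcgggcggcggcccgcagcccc
Cdk1 (chr10:69352913-69353112, minus strand): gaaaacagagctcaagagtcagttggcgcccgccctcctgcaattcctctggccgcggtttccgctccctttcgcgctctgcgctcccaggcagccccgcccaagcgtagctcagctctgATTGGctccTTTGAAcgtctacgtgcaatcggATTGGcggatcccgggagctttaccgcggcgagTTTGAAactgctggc
Plk1 (chr7:122159235-122159434, plus strand): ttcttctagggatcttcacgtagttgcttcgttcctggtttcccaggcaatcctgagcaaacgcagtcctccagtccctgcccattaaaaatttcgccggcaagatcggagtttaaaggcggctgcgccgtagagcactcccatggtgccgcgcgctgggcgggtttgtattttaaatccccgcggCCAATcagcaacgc
Ccnb1 (chr13:100786487-100786686, minus strand): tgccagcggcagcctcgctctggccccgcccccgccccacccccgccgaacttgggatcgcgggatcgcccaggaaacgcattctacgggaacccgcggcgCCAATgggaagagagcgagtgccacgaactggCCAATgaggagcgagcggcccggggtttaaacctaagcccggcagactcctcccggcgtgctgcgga
Aurka (chr2:172370571-172370770, minus strand): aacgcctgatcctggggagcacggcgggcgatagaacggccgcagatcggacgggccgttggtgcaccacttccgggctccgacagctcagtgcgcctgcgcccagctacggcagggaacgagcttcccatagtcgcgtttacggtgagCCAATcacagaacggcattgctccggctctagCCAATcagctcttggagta
Birc5 (chr11:117849037-117849236, plus strand): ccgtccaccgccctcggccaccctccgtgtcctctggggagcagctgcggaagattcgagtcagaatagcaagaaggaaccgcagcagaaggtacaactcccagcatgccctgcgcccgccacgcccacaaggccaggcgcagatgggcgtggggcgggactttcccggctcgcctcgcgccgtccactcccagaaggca
Ndc80 (chr17:71526858-71527057, minus strand): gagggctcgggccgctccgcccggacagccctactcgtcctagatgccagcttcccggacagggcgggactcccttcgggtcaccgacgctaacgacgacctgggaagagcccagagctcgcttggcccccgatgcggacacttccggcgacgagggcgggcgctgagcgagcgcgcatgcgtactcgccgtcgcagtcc
Nusap1 (chr2:119618098-119618297, plus strand): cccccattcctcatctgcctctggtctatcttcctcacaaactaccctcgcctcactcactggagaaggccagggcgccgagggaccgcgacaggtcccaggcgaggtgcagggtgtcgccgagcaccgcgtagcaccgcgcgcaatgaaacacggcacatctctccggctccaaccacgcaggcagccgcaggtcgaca
The CHR of Ccnf, Cdc20 and Cdk1 nearest the start begins 14, 18 and 15 bases before it, and that of Ube2c, on the other strand, 29 bases before it. The other 6 stretches hold no CHR letters, and those of Birc5, Ndc80 and Nusap1 no CCAAT letters either. Of these 6 genes, Plk1, Aurka and Ndc80 have a CHR elsewhere in the 300-base window, and Ccnb1, Birc5 and Nusap1 have none in it.

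Depth was even, with 6.93 to 9.14 gigabases of sequence on annotated transcripts per library (coverage times length). Vim and Col1a1, of the stromal marker list, were at 977 to 6577 FPKM and 831 to 2401 FPKM, while Eng and Nt5e, often used to define such cells, were at 0.258 to 2.12 FPKM and 0.167 to 7.94 FPKM. No marker of blood, endothelial, epithelial or skeletal muscle cells exceeded 2.69 FPKM in any library, and the muscle genes Myog and Ckm were listed at 0 throughout. Ly6a, a stromal progenitor marker, was at 9.59 FPKM in Luc 8 and at 92.1 to 252 FPKM in the other 7 libraries. Thy1, of the same list, was at 0.0916 to 0.672 FPKM in both libraries of clones 2 and 4 and in Luc 8. It was at 15.9 FPKM in cFos 8, 21.9 FPKM in Luc 12 and 23.8 FPKM in cFos 12. Fos itself was at 76.2, 41.1, 302 and 43.5 FPKM with Luc and 589, 675, 1019 and 505 FPKM with cFos, in the order of clones 2, 4, 8 and 12 that all lists of 4 values below follow.

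Over all 4 clones, none of the 39 genes passed the test of cFos against Luc. None rose and none fell by limma (adjusted p under 0.05 over all 11162 genes), where 5.55% of all tested genes passed, 2.92% higher and 2.62% lower. At an unadjusted p under 0.05 the count was also 0 of 39, against 20.1% of all genes. With the clone as a block in limma it was again 0, and the smallest adjusted p was 0.360. The median log2 difference, cFos minus Luc on the scale of log2(FPKM + 0.5), was -0.11, beside -0.06 over all tested genes, 29 were below 0 (58.3% of all genes) and 10 above (41.7%). Single members lay between -0.50 and 0.45, with SE of 0.20 to 0.36. The Luc and cFos ranges overlapped for all 39, while they did not for 13.7% of all genes.

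Within the clones, clone 8 had the opposite direction to the others, as a description of 1 library per virus with no test within a clone. In clone 8 all 39 were higher in cFos, where 48% of all tested genes were, and 33 of them by at least 1.5-fold (15.4% of all genes). In clone 2 all 39 were lower in cFos (54.7% of all genes), 30 of them by at least 1.5-fold (19%). In clone 4, 33 were lower (62.1%) and 6 higher (37.9%), with 0 of them 1.5-fold lower or higher (8.88% and 8.59%). In clone 12, 36 were lower (51.8%) and 3 higher (48.2%), 4 of the 36 by at least 1.5-fold (12%). The median ratio of cFos to Luc was 1.796 in clone 8, and 0.531, 0.845 and 0.803 in clones 2, 4 and 12. Over all tested genes it was 0.985 in clone 8 and 0.954, 0.939 and 0.987 in the others. Higher in clone 8 and lower in each of the other 3 were 32 of the 39, against 10.5% of all genes. The other 7 were Ccnb2, Ccnf, Pbk, Ube2c, Kif11, Prc1 and Anln, of which each was higher in cFos in clone 4, clone 12 or both.

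**Figure D1:**
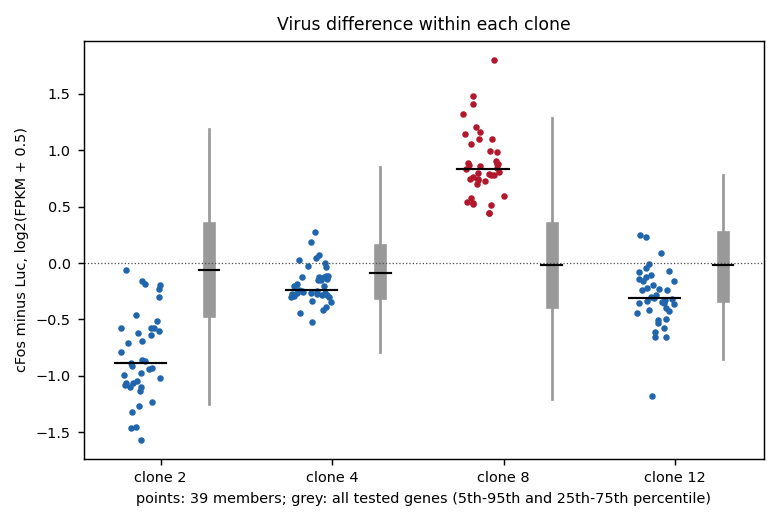
Difference between the cFos and the Luc library within each clone (y axis, log2(FPKM + 0.5)). Points are the 39 genes with their median as a black line, and grey bars give the 5th to 95th and the 25th to 75th percentile of all tested genes with their median. All 39 points of clone 8 lie above 0 and all 39 of clone 2 below it.

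Each library of clone 8 tended to one end of the libraries of its virus, Luc 8 for more of the genes than cFos 8. Luc 8 was the lowest of the 4 Luc libraries for all 39 genes (37.1% of all tested genes) and the lowest of all 8 for 24 (21.7%), and cFos 8 was the highest of the 4 cFos libraries for 32 (25.9%). Both held for 32 (6.07%). The cFos minus Luc difference was highest in clone 8 for all 39 (33.9%). For all 39 it was also above 0 there and exceeded each other clone's by at least 0.5 log2 (8.28% met both conditions). It was lowest in clone 2 for 36 (30.5%). At the other end, cFos 2 was the lowest cFos library for 37 (21.1%), and Luc 2 the highest Luc library for 25 (27.9%). The median level over the 39 genes was 14.3 FPKM in Luc 8 and 15.3 FPKM in cFos 2. In the other 6 libraries it was 20.3 (cFos 4) to 28.9 FPKM (Luc 2), with 24.1 in cFos 8. The cFos 8 median thus lay within those of the Luc libraries of clones 2, 4 and 12, 23.9 to 28.9 FPKM. The medians over all tested genes stayed between 11.0 and 12.1 FPKM. Luc 8 is also the Luc library with the most Fos, and Ly6a was low in it, and their part in these levels was not tested.

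**Figure D2:**
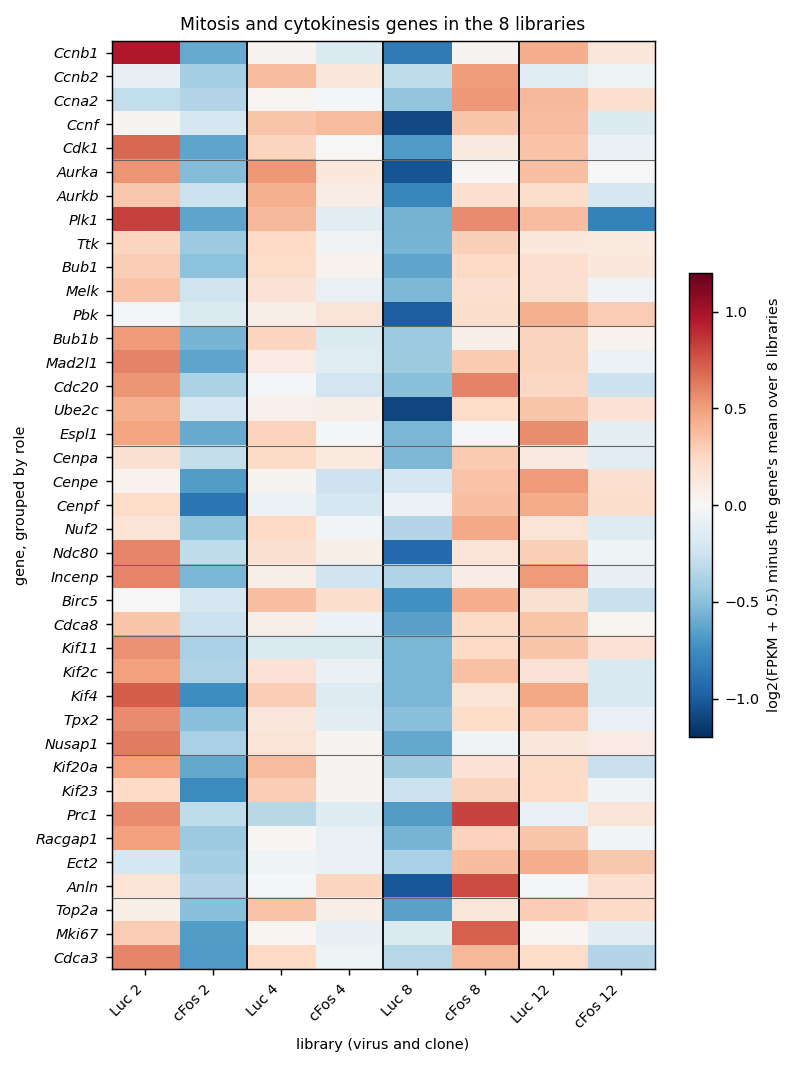
Level of each of the 39 genes (rows, grouped by role in the order of the text, with grey lines between roles) in each library (columns, clones separated by black lines), as log2(FPKM + 0.5) minus the gene's mean over the 8 libraries. The Luc 8 and cFos 2 columns are mostly blue, below the gene's mean, and Luc 2 and cFos 8 mostly red.

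Whether the difference between the viruses in clone 8 departs from that in clones 2, 4 and 12 was tested by limma on the 4 within-clone differences. The departure, the clone 8 difference minus the mean of the other 3, was above 0 for all 39 genes (53.3% of all tested genes), with a median of 1.27 on the log2 scale beside 0.041 over all genes. It ran from 0.86 (Ect2) to 2.19 (Plk1). Of the 39, none passed after adjustment over all genes (0.0627% of all genes did, 7 in number), with limma adjusted p from 0.188 to 0.476. At an unadjusted p under 0.05, 37 of the 39 were higher in clone 8 and none lower, against 7.36% and 5% of all genes. The other 2 were Cenpf and Nusap1. Clone 8 was set apart with earlier results of these data known, and the 39 genes correlated over the libraries (given below). The 37 are thus not 37 separate findings. Clone 8 is a single line, so the spread in this test is that among the other 3, and 1 against 3 could not pass an exact permutation test. Without clone 2, the line with the largest opposite difference, the median departure was 1.07, and Anln passed (limma adjusted p = 0.0452), as did 125 of all genes.

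The level in clone 8, averaged over both viruses, departed less. It was lower than in the other clones for 29 of the 39 genes (55.6% of all genes), with a median difference of -0.19 beside -0.043 over all genes. None passed by limma, nor did any of the 11162 genes (0%). At an unadjusted p under 0.05 there were 5 members, all lower, where 6.63% of all genes were. The 5 were Ube2c, Aurka, Ndc80, Nusap1 and Ccnb1.

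**Figure D3:**
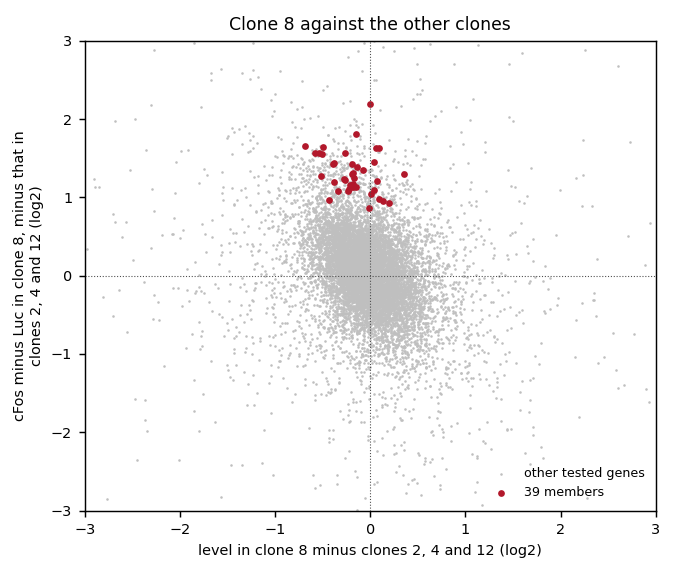
Clone 8 set against clones 2, 4 and 12, as the difference in level averaged over both viruses (x axis, log2) and the departure of its cFos minus Luc difference (y axis, log2). Red points are the 39 genes and grey points the other tested genes, of which 72 lie outside the axes. The red points sit between 0.86 and 2.19 on the y axis and spread around a small negative value on the x axis.

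Among the cyclins and Cdk1, all 5 were higher in cFos 8 than in Luc 8, by 1.73-fold to 2.86-fold. Cdk1, the catalytic partner (chromosome 10, 68799383 to 68815660, mm9 as for all positions of genes below), was at 61.5, 45.4, 23.6 and 48.3 FPKM with Luc and 24.4, 38.2, 41.0 and 35.9 FPKM with cFos. Ccnb1, cyclin B1 (chromosome 13, 101548694 to 101556441), was at 88.1, 46.1, 24.8 and 61.1 FPKM with Luc and 29.4, 39.9, 46.0 and 49.5 FPKM with cFos. For both genes Luc 2 was the highest library and Luc 8 the lowest, and their levels over the viruses overlapped. The cFos minus Luc difference over all clones was -0.30 (SE 0.29, limma adjusted p = 0.613) for Cdk1 and -0.30 (SE 0.35, limma adjusted p = 0.687) for Ccnb1. Ccnf, cyclin F, a substrate receptor of a ubiquitin ligase (chromosome 17, 24360177 to 24388354), was at 9.35, 11.7, 4.07 and 12.0 FPKM with Luc and 7.92, 12.0, 11.6 and 8.14 FPKM with cFos. Its Luc 8 value was less than that of any other library, and the departure of clone 8 was 1.65 (SE 0.32, limma adjusted p = 0.199). Ccnb2, cyclin B2, ranged over 24.7 to 46.6 FPKM and Ccna2, cyclin A2, over 30.7 to 61.7 FPKM, and cFos 8 was the highest library for both. In clone 2 the viruses were close for Ccnb2, Ccna2 and Ccnf, where Luc was 1.24-fold, 1.04-fold and 1.18-fold of cFos, and apart for Ccnb1 and Cdk1, at 2.99-fold and 2.52-fold.

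Of the 7 mitotic kinases, Plk1 had the largest departure of clone 8 among all 39 genes. Plk1, the polo-like kinase of mitotic entry and spindle assembly (chromosome 7, 129302951 to 129313389), was at 28.1, 20.6, 10.4 and 20.3 FPKM with Luc and 9.93, 14.2, 23.5 and 8.73 FPKM with cFos. It was 2.26-fold higher in cFos in clone 8, and Luc exceeded cFos by 2.82-fold, 1.46-fold and 2.33-fold in clones 2, 4 and 12. The departure was 2.19 (SE 0.40, limma adjusted p = 0.188), and the difference over all 4 clones -0.50 (SE 0.36, limma adjusted p = 0.485). Both clone 8 libraries were also left out, an alternative chosen after seeing the data. Plk1 was then the 1 member that fell (log2 difference -1.05, limma adjusted p = 0.0493), where 1.7% of all genes fell. All 39 were then below 0 (57.6% of all genes), with a median of -0.44, and 20 were lower at an unadjusted p under 0.05 (11.8% of all genes). With the clone as a block added, Plk1 was again the 1 member that fell (limma adjusted p = 0.0352). In that fit 871 of all 11162 genes rose or fell, against 419 without the block.

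The Aurora kinases had the same directions as Plk1. Aurka, of spindle poles (chromosome 2, 172181696 to 172196006), was at 32.1, 32.0, 10.5 and 28.6 FPKM with Luc and 15.3, 24.2, 22.4 and 22.3 FPKM with cFos. Aurkb, the kinase of the chromosomal passenger complex (chromosome 11, 68859145 to 68865164), was at 21.2, 22.9, 9.62 and 19.7 FPKM with Luc and 14.1, 18.0, 19.5 and 14.6 FPKM with cFos. Luc 8 held the lowest value of both, and both were higher in Luc than in cFos in each of the other clones. The departure of clone 8 was 1.65 (SE 0.35, limma adjusted p = 0.213) for Aurka and 1.42 (SE 0.26, limma adjusted p = 0.188) for Aurkb, and the level of Aurka in clone 8 differed by -0.68 (SE 0.19, limma adjusted p = 0.433). Pbk, a mitotic serine/threonine kinase (chromosome 14, 66424748 to 66436659), was at 16.8, 18.0, 8.27 and 23.0 FPKM with Luc and 14.9, 18.9, 19.7 and 21.1 FPKM with cFos. Its viruses were close in clones 2, 4 and 12, while in clone 8 cFos was 2.38-fold of Luc, with a departure of 1.27 (SE 0.26, limma adjusted p = 0.206) and a difference over all clones of 0.25 (SE 0.28, limma adjusted p = 0.673). The checkpoint kinases Ttk and Bub1 and the kinase Melk ranged over 5.10 to 9.55 FPKM, 8.03 to 15.7 FPKM and 7.40 to 14.1 FPKM, with cFos 8 at 1.87-fold, 1.88-fold and 1.72-fold of Luc 8.

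**Figure D4:**
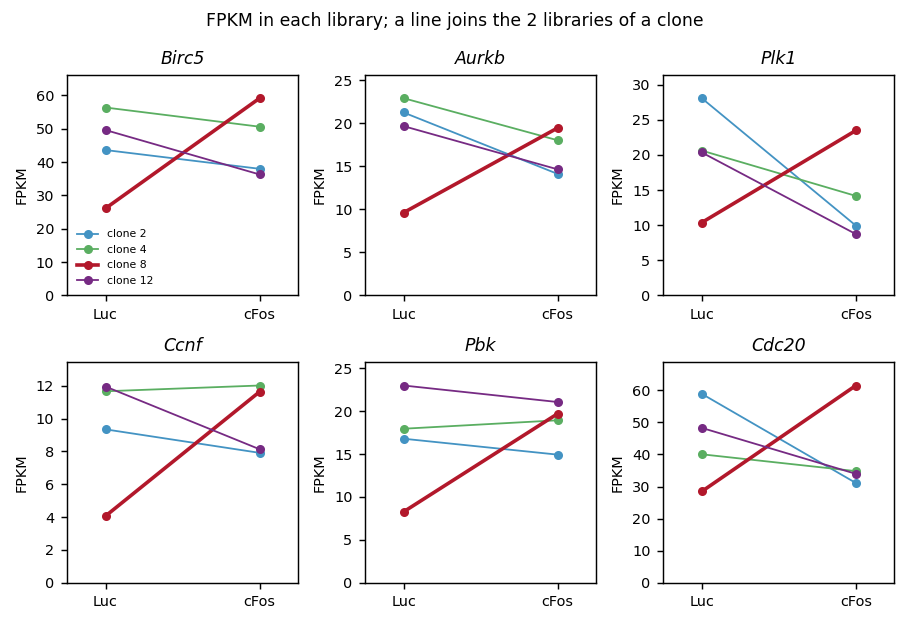
FPKM of the 6 genes with the smallest p for the departure of clone 8, in the Luc and the cFos library of each clone (y axis from 0, a line joins the 2 libraries of a clone). The clone 8 line, in red, rises from the lowest Luc value in each panel, while in clones 2, 4 and 12 the lines fall or stay near level.

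The genes of the spindle checkpoint, the anaphase-promoting complex and separase act on the step from metaphase to anaphase. Cdc20, the activator of the complex (chromosome 4, 118105506 to 118109948), was at 58.9, 40.0, 28.5 and 48.3 FPKM with Luc and 31.1, 34.8, 61.5 and 33.95 FPKM with cFos. Ube2c, its ubiquitin-conjugating enzyme (chromosome 2, 164595429 to 164598402), had the highest mean level of the 39 and was at 100.2, 77.5, 34.6 and 93.9 FPKM with Luc and 64.8, 78.8, 87.0 and 84.1 FPKM with cFos. cFos 8 was the highest library for Cdc20, while for Ube2c cFos 8 lay below Luc 2 and Luc 12. Both departures were of like size, 1.64 (SE 0.33, limma adjusted p = 0.206) and 1.57 (SE 0.32, limma adjusted p = 0.206), and Ube2c had the smallest p of the 39 for its level in clone 8, -0.58 (SE 0.16, limma adjusted p = 0.432). Bub1b, the checkpoint protein BubR1 (chromosome 2, 118423947 to 118467328), was at 32.6, 27.3, 16.7 and 27.5 FPKM with Luc and 15.3, 20.3, 24.1 and 23.5 FPKM with cFos. Espl1, separase, which cuts cohesin (chromosome 15, 102126724 to 102154787), had the lowest mean level of the 39 and was at 7.81, 6.73, 3.60 and 8.28 FPKM with Luc and 3.43, 5.39, 5.38 and 5.06 FPKM with cFos. For these 2 genes cFos 2 was the lowest library of all 8, and the difference over all clones was -0.30 (SE 0.22, limma adjusted p = 0.515) and -0.38 (SE 0.26, limma adjusted p = 0.464). Mad2l1, the checkpoint protein Mad2, ranged over 18.6 to 44.2 FPKM and was 1.69-fold higher in cFos in clone 8, while Luc was 2.38-fold of cFos in clone 2.

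Kinetochore and centromere genes, which join chromosomes to spindle microtubules, held the smallest clone 8 departure but 1. Cenpf, a large kinetochore protein (chromosome 1, 191464493 to 191511965), was at 8.49, 6.84, 6.83 and 9.97 FPKM with Luc and 3.70, 6.16, 9.43 and 8.43 FPKM with cFos. Cenpe, a kinetochore kinesin (chromosome 3, 134875527 to 134936504), was at 12.3, 12.3, 10.4 and 17.4 FPKM with Luc and 7.35, 10.0, 15.3 and 13.8 FPKM with cFos. For both, Luc 8 lay less far below the other Luc libraries than for most members, and cFos 2 was the lowest library of all. Their departures were 0.93 (SE 0.45, limma adjusted p = 0.476) and 0.98 (SE 0.30, limma adjusted p = 0.288), and their differences over all clones -0.26 (SE 0.27, limma adjusted p = 0.650) and -0.19 (SE 0.24, limma adjusted p = 0.713). Ndc80, the microtubule-binding subunit that names its complex (chromosome 17, 71845440 to 71876197), was at 24.3, 18.3, 8.16 and 19.7 FPKM with Luc and 12.9, 16.8, 18.1 and 15.4 FPKM with cFos. Nuf2, its partner in the same complex, ranged over a narrower 10.4 to 20.2 FPKM. Cenpa, the centromeric histone, ranged over 20.9 to 38.3 FPKM, and cFos 8 was the highest library for Nuf2 and Cenpa. The level of Ndc80 in clone 8 differed by -0.51 (SE 0.16, limma adjusted p = 0.443).

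The chromosomal passenger complex, which corrects attachments and then marks the cleavage plane, joins Aurkb to Incenp, Birc5 and Cdca8. Birc5, survivin (chromosome 11, 117710551 to 117717057), had the smallest p of all 39 for the departure of clone 8 and was at 43.6, 56.4, 26.1 and 49.6 FPKM with Luc and 38.0, 50.6, 59.2 and 36.3 FPKM with cFos. Incenp, the scaffold (chromosome 19, 9946787 to 9974023), was at 34.8, 24.1, 17.8 and 32.9 FPKM with Luc and 15.5, 19.4, 24.4 and 21.4 FPKM with cFos. These partners differed in shape: Birc5 was 2.27-fold higher in cFos 8 than in Luc 8 and differed by 1.15-fold in clone 2, while Incenp was 1.37-fold higher in clone 8 and 2.24-fold lower with cFos in clone 2. Their departures were 1.43 (SE 0.25, limma adjusted p = 0.188) and 1.13 (SE 0.37, limma adjusted p = 0.325). Over all clones Incenp had the smallest p of the 39 for cFos against Luc, -0.40 (SE 0.23, limma adjusted p = 0.374), and Birc5 gave 0.092 (SE 0.26, limma adjusted p = 0.882). Cdca8, borealin, ranged over 14.3 to 28.9 FPKM.

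Kinesins and spindle factors were lower in cFos 2 than in Luc 2 by 1.85-fold to 2.90-fold in all 5 cases. Kif4, a chromosome-bound kinesin (chromosome X, 97821404 to 97922610), was at 18.5, 13.6, 7.35 and 15.4 FPKM with Luc and 6.38, 9.82, 12.3 and 9.61 FPKM with cFos. Tpx2, which activates Aurora A on the spindle (chromosome 2, 152673700 to 152721057), was at 49.4, 36.6, 23.3 and 41.3 FPKM with Luc and 23.3, 30.2, 38.9 and 31.1 FPKM with cFos. Nusap1, a microtubule-bundling protein (chromosome 2, 119444034 to 119475896), was at 26.7, 19.2, 11.0 and 18.9 FPKM with Luc and 12.9, 17.6, 16.7 and 18.3 FPKM with cFos. For all 3 the highest library was Luc 2, and the lowest was cFos 2 for Kif4 and Luc 8 for Tpx2 and Nusap1. The difference over all clones was -0.47 (SE 0.29, limma adjusted p = 0.413) for Kif4 and -0.25 (SE 0.24, limma adjusted p = 0.612) for Tpx2, and the level of Nusap1 in clone 8 differed by -0.44 (SE 0.15, limma adjusted p = 0.461). Kif11, the motor that separates the poles, and Kif2c, a microtubule depolymerase, ranged over 12.3 to 26.8 FPKM and 10.1 to 21.3 FPKM.

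Genes of the central spindle and cytokinesis held the members that most went against the others outside clone 8. Anln, anillin of the contractile ring (chromosome 9, 22135658 to 22193650), was at 35.2, 31.1, 15.3 and 30.8 FPKM with Luc and 24.6, 37.7, 54.6 and 36.3 FPKM with cFos. Prc1, which bundles the central spindle (chromosome 7, 87439351 to 87461145), was at 51.4, 27.4, 21.6 and 32.7 FPKM with Luc and 27.96, 31.1, 61.2 and 38.8 FPKM with cFos. Both were higher in cFos in clones 4, 8 and 12, the only members of which this was so, and lower in clone 2. Anln had the largest ratio of the 39 in clone 8, 3.57-fold, with a departure of 1.805 (SE 0.38, limma adjusted p = 0.206) and a difference over all clones of 0.45 (SE 0.30, limma adjusted p = 0.457). Kif20a, a central spindle kinesin (chromosome 18, 34784278 to 34792931), was at 48.9, 45.2, 25.7 and 40.9 FPKM with Luc and 22.5, 35.4, 39.03 and 28.8 FPKM with cFos. It followed the majority, with Luc above cFos in clones 2, 4 and 12, and a difference over all clones of -0.34 (SE 0.24, limma adjusted p = 0.477). Kif23 and Racgap1, the subunits of centralspindlin, ranged over 9.30 to 19.9 FPKM and 26.4 to 55.1 FPKM, and Ect2, the RhoA exchange factor they recruit, over 9.79 to 17.8 FPKM.

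Of the remaining 3 genes, Mki67 and Top2a are standard markers of cycling cells. Mki67, Ki-67 of the chromosome surface (chromosome 7, 142881471 to 142908062), was at 27.6, 22.8, 19.7 and 22.6 FPKM with Luc and 13.9, 20.8, 36.9 and 20.4 FPKM with cFos. cFos 8 was its highest library, 1.87-fold of Luc 8, and cFos 2 the lowest, and its difference over all clones was -0.087 (SE 0.26, limma adjusted p = 0.890). Top2a, topoisomerase II alpha, ranged over 40.2 to 80.6 FPKM and was 1.73-fold higher with cFos in clone 8. Cdca3, a trigger of entry into mitosis (chromosome 6, 124780194 to 124783719), was at 56.0, 44.1, 29.3 and 43.4 FPKM with Luc and 23.0, 35.7, 49.2 and 29.0 FPKM with cFos, with a difference over all clones of -0.35 (SE 0.26, limma adjusted p = 0.503). These 3 markers thus put the same 2 libraries apart as the other roles did, Luc 8 below the other Luc libraries and cFos 2 below the other cFos libraries.

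All 741 pairs of the 39 genes had a Pearson correlation above 0 over the 8 libraries (log2 values), with a median of 0.77 and a range of 0.27 to 0.99, a description that rests on shared libraries and clones. Over all pairs of tested genes the median was 0.014, and 51.1% were above 0. Racgap1, Tpx2 and Melk followed the median of the other members most closely (r of 0.98, 0.97 and 0.97), and Ccnb2, Ect2 and Ccna2 least (0.57, 0.58 and 0.59). The ratio of the highest to the lowest library was 1.82 (Ect2) to 3.57 (Anln). Mean levels over the 8 libraries ran from 5.71 FPKM (Espl1) to 77.6 FPKM (Ube2c), with a median of 23.2. The deposited tables also carry a confidence interval for each value, which covers the estimate within 1 library only. Among the 31 members with a single entry, the authors' cFos interval lay wholly above the Luc interval for all 31 in clone 8 (33.1% of the 8431 such genes tested). It lay wholly below for 29 in clone 2 (42.3%), 21 in clone 4 (37.8%) and 27 in clone 12 (33.9%).

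Other genes of the cell cycle were counted from 8 lists, 170 genes tested, and none rose or fell by limma over the 8 libraries. Their median within-clone differences are side by side in the plot of lists by clone. Genes of the kinetochore and centromere outside the members (32 tested) had a median log2 difference of 0.61 in clone 8 and -0.70, -0.19 and -0.24 in clones 2, 4 and 12, and 28 of them were higher with cFos in clone 8, beside 48% of all tested genes. Spindle and cytokinesis genes outside the members (28) gave 0.63 in clone 8, with 26 higher, and DNA replication genes (39) 0.56, with 36 higher. The same medians for the 39 members were 0.83 in clone 8 and -0.89, -0.24 and -0.31 in clones 2, 4 and 12. The 12 subunits of the anaphase-promoting complex had -0.17 in clone 8 and 4 of 12 higher. The departure of clone 8 had an unadjusted p under 0.05 for 30 of 39 DNA replication genes, 19 of 28 spindle, 17 of 32 kinetochore, 10 of 19 entry control, 7 of 21 G1 to S and 6 of 13 condensin and cohesin genes, where 12.4% of all tested genes had one. It was 0 of 12 for the subunits of the complex and 0 of 6 for the Cdk inhibitors. None of the 170 passed after adjustment, with 0.0643 the smallest limma adjusted p (Rrm2, ribonucleotide reductase).

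**Figure D5:**
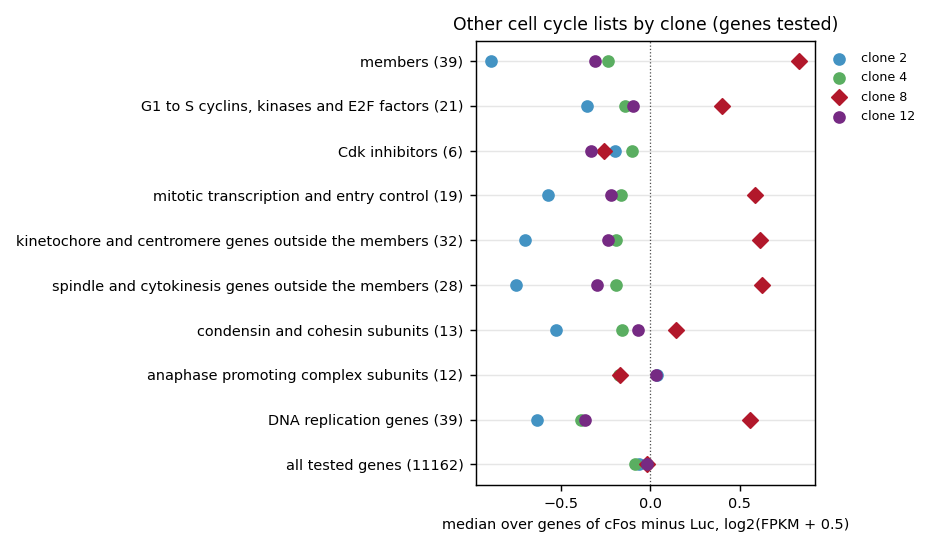
Median over the genes of each list (y axis, number tested in brackets) of the cFos minus Luc difference within a clone (x axis, log2(FPKM + 0.5)). Diamonds stand for clone 8 and circles for clones 2, 4 and 12. Clone 8 lies to the right of 0 for the members, DNA replication and 5 other lists, and to the left for Cdk inhibitors and the subunits of the anaphase-promoting complex.

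Regulators of mitotic transcription were read beside the members. Foxm1, a transcription factor of mitotic genes, was at 24.7, 22.2, 13.1 and 23.4 FPKM with Luc and 13.6, 21.6, 25.1 and 17.0 FPKM with cFos, and Mybl2, B-Myb, at 5.91, 9.94, 2.18 and 8.25 FPKM with Luc and 5.28, 9.02, 6.58 and 6.25 FPKM with cFos. Both were chosen for their role after their values were seen, and Luc 8 was the lowest Luc library for both. In the same list (19 tested, median over all clones -0.10) Bora, an activator of Aurka, was at 7.40 ± 0.684 FPKM with Luc and 5.500 ± 0.676 FPKM with cFos, and the Cdh1 gene Fzr1 at 23.3 ± 4.85 FPKM with Luc and 19.0 ± 4.06 FPKM with cFos (SD, n = 4, as for the values below). The MuvB subunits Lin52 and Lin9 were at 3.80 ± 0.481 FPKM with Luc and 3.03 ± 0.477 FPKM with cFos and 4.89 ± 1.66 FPKM with Luc and 3.78 ± 0.612 FPKM with cFos.

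Of the Cdk inhibitors (6 tested), 2 were higher with cFos in clone 8, beside 48% of all tested genes. Cdkn1a, p21, was at 2.55, 1.06, 0.311 and 3.89 FPKM with Luc and 10.2, 5.27, 3.36 and 15.5 FPKM with cFos, higher with cFos in all 4 clones. Its log2 difference was 1.96 (SE 0.59, limma adjusted p = 0.0955), and with the clone as a block in limma it rose (adjusted p = 0.00228). Cdkn1b, p27, was at 28.8, 23.7, 27.7 and 22.9 FPKM with Luc and 16.1, 17.2, 19.0 and 21.2 FPKM with cFos, lower with cFos in all 4 clones, with a log2 difference of -0.48 (SE 0.14, limma adjusted p = 0.0810). Cdkn2c was at 25.3 ± 6.77 FPKM with Luc and 19.0 ± 4.12 FPKM with cFos, and Cdkn2a, the Ink4a and Arf locus, at 240.5 ± 66.7 FPKM with Luc and 189 ± 53.5 FPKM with cFos. The ratio of p21 was largest in clone 8, at 10.8-fold, from a Luc 8 value of 0.311 FPKM, under the 1 FPKM of the filter. In clone 8, p21 and p27 had the direction of the other clones, and 32 of the 39 genes had the opposite one. Any part of these inhibitors in the levels of the 39 genes was not tested.

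In the remaining lists, the genes of smallest p were these. Among G1 to S genes, Rb1, the retinoblastoma protein, was at 3.43 ± 0.438 FPKM with Luc and 5.09 ± 0.803 FPKM with cFos, and Tfdp2, an E2F partner, at 5.77 ± 1.02 FPKM with Luc and 8.16 ± 0.774 FPKM with cFos. The cyclin gene Ccnd2 was at 121 ± 18.1 FPKM with Luc and 85.7 ± 12.6 FPKM with cFos and Cdk4 at 293 ± 65.6 FPKM with Luc and 215 ± 19.6 FPKM with cFos. None of these 4 passed (limma adjusted p = 0.110 to 0.204). Ska2, of a complex that couples kinetochores to microtubules, had the smallest limma adjusted p of the 170, 0.0584, at 21.2 ± 1.60 FPKM with Luc and 14.6 ± 2.06 FPKM with cFos. Cenpp, Cenpw and Cenpm, of the inner kinetochore, were at 9.91 ± 2.42 FPKM with Luc and 6.62 ± 0.713 FPKM with cFos, at 6.81 ± 1.78 FPKM with Luc and 4.49 ± 0.365 FPKM with cFos and at 7.29 ± 2.37 FPKM with Luc and 4.93 ± 1.08 FPKM with cFos. Mcm4 and Mcm3, of the replicative helicase, were at 50.9 ± 10.2 FPKM with Luc and 32.6 ± 4.75 FPKM with cFos and at 34.7 ± 9.07 FPKM with Luc and 24.9 ± 3.60 FPKM with cFos, the primase gene Prim1 at 19.2 ± 4.67 FPKM with Luc and 12.9 ± 1.69 FPKM with cFos and the clamp loader gene Rfc5 at 20.0 ± 3.70 FPKM with Luc and 15.3 ± 1.05 FPKM with cFos. Without Luc 8, DNA replication genes gave 5 falls, Fen1, Gins1, Mcm3, Mcm5 and Prim1 (limma adjusted p = 0.0256 to 0.0440), where 2.64% of all genes fell, and none of the 39 members. Spindle genes of smallest p were Kif5b (41.0 ± 3.23 FPKM with Luc and 48.6 ± 4.37 FPKM with cFos), a transport kinesin, with Psrc1, Ckap2 and Ckap2l at log2 differences of -0.51, -0.45 and -0.37. The condensin genes Ncapd2, Ncaph2 and Ncaph and the cohesin gene Smc1a had differences of -0.49, -0.30, -0.31 and -0.24. Anapc1, Anapc7, Cdc16 and Anapc13, subunits of the anaphase-promoting complex, had -0.19, -0.21, -0.16 and -0.21.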

How the data were processed

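The submitters' processing notes name mm9 as genome build and list CASAVA 1.8.2, TopHat and Cufflinks. No option, annotation release or further version is named there. By their headers, the deposited tables are Cufflinks tracking tables with FPKM and its confidence limits and the coverage (mean depth per base, a signal without normalization) of each RefSeq transcript. No scaling between libraries is recorded, and no read counts are in these files, so no counting interval was computed. Cufflinks splits reads between transcripts by a model.

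The 30769 entries were named from RefSeq tables (30227 entries) and GENCODE M21 metadata (180), and FPKM was summed per symbol. A failed status removed 3 genes, none of them members. limma 3.58.1 in R 4.3.3 (lmFit, eBayes with a mean-variance trend) was run on log2(FPKM + 0.5), which understates the change of low genes, two-sided with Benjamini-Hochberg adjustment over the 11162 genes that reached 1 FPKM in 4 libraries. The 3 fits were cFos against Luc over 8 libraries, and clone 8 against clones 2, 4 and 12 on within-clone differences and on within-clone means. The code was tested on simulated data. The alternatives were other pseudocounts and filters, median-ratio scaling, no trend, the clone as a block, and leaving out libraries or clones. Clone numbers pair the libraries, since each number is 1 line. Deviations from the virus means correlated within clones 2, 4, 8 and 12 by 0.17, 0.59, 0.35 and 0.44. Nothing in the labels says whether the libraries came from separate cultures beyond the clones, so p-values measure the spread between these libraries.

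The members, the lists and the comparison of clone 8 were chosen with earlier results of these data known. Every member is named, with values in each library for members called in any fit, for the 2 of each role with the smallest p for cFos against Luc, and for the 6 with the smallest p in each clone 8 fit. Of each other list, up to 4 genes of smallest p are named. Tables were made in pandas 2.3.3 and numpy 2.4.6 (Python 3.11.15), and plots in matplotlib 3.10.9.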

Additional observations from a re-analysis of the deposited data

Results flagged for a closer look

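Among the 78 sets of 4 libraries (39 genes, each virus), 6 held a library whose gap to its nearest neighbour exceeded Dixon's 95% critical share of the whole range, where chance gives about 3.9. In Luc 8 these were Aurka at 10.5 FPKM (28.6 to 32.1 in the other 3 Luc libraries), Bub1 at 8.03 (14.7 to 15.7), Nuf2 at 11.4 (16.4 to 17.3) and Kif23 at 13.4 (19.1 to 19.9). Cdc20 was at 61.5 FPKM in cFos 8, against 31.1 to 34.8 in the other cFos libraries. Espl1 was at 3.43 FPKM in cFos 2, against 5.06 to 5.39.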

How the results depend on the processing

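The count of members that rose or fell with cFos stayed at 0 under every other filter, pseudocount, scaling and trend setting, with the clone as a block, and with any 1 library left out, and it was 1 fall (Plk1) without both libraries of clone 8, with the clone as a block or without it. Without Luc 8 the member median was -0.32, 12 of 39 had an unadjusted p under 0.05 (21.96% of all genes) and the smallest limma adjusted p was 0.0971, while without Luc 2 or cFos 2 the median was -0.00069 or -0.0071. The departure of clone 8 kept its sign for all 39 in every alternative, with medians of 1.07 to 1.39. The number past the threshold was 0 to 1 when a clone was left out (1 without clone 2), and 27 of 39 had an unadjusted p under 0.05 with no filter (11.7% of all genes). Signs turned for differences that did not pass. For Birc5 the log2 difference was -0.14 without Luc 8, -0.038 without cFos 8 and -0.27 without clone 8 (-0.14 to 0.23 when 1 library was left out). For Pbk it was -0.041 without Luc 8 and -0.071 without clone 8 (-0.041 to 0.43), for Mki67 0.12 without cFos 2 (-0.34 to 0.12), and for Anln -0.0023 without clone 8. With the clone as a block, 503 of all genes rose and 478 fell, and 1 gene of the other cell cycle lists rose (Cdkn1a). No filter gave 175 falls. Leaving out 1 library gave 150 to 319 rises and 85 to 295 falls of all genes, with 150 and 85 without cFos 2, 190 and 101 without cFos 4, and 147, 172 and 138 falls without Luc 2, Luc 4 and cFos 8. In the other lists it gave 0 to 5 falls, 5 without Luc 8. Without clone 8, 190 of all genes fell. With the block added, 871 of all 11162 genes rose or fell. Among the 170 genes of the lists there were then 1 rise (Cdkn1a) and 6 falls, of Gins2, Mcm2, Mcm3, Mcm5, Rrm2 and Tk1. Median-ratio scaling raised the members above 0 from 10 to 14. The causes of these changes were not tested.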

Other observations

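Of the 39 genes, 8 had more than 1 transcript entry, and the split between entries is the authors' model estimate. Birc5 was carried by its entry of 972 bases, at 97.7 to 98.9% of its FPKM in every library, and Ttk by that of 2904 bases, at 93.0% or more. Kif20a was carried by its entry of 3473 bases at 91.6 to 96.3%, and Nusap1 by that of 2960 bases at 81.7 to 93.4%. Bub1 was split between entries that differ by few bases, and the longer, of 4337 bases, held 86.9% in Luc 8 and 59.9 to 80.3% in the other libraries. Tpx2 was spread over 5 entries, with 43.7 to 53.1% in that of 4164 bases.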
